A study of Saccharomyces cerevisiae with 8 samples.

Results

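IDP1, IDP2 and IDP3 encode the NADP-dependent isocitrate dehydrogenases of budding yeast, found in mitochondria, cytosol and peroxisomes. These 3 genes were chosen by name from the 6256 genes on the array (IDP1 is YDL066W, IDP2 is YLR174W and IDP3 is YNL009W), and each was read by 1 probe in 2 spots. The samples were 4 arrays of the pressure-sensitive mutant strain a924E1 and 4 arrays of its parent, strain KA31a. The cultures of both grew in YPD (1.0% yeast extract, 2.0% peptone, 2.0% glucose) at 30 °C and were collected after 48 h, and the labels name no pressure treatment. The sources used here do not name the gene mutated in a924E1, so no check of a targeted gene was possible. In these bulk cultures, fewer cells with a transcript and less of it per cell cannot be told apart.

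All 3 enzymes oxidise isocitrate to 2-oxoglutarate and reduce NADP to NADPH. The mitochondrial enzyme Idp1 contributes 2-oxoglutarate for glutamate synthesis. The cytosolic enzyme Idp2 is known to be low during growth on glucose and abundant on nonfermentable carbon, and the peroxisomal enzyme Idp3 supplies NADPH for the oxidation of unsaturated fatty acids. The NAD-dependent enzyme of the TCA cycle is a different protein, built from the subunits Idh1 and Idh2. The comparison asks whether the transcripts for the 3 compartments differ between mutant and parent, and whether they differ by the same amount.

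The cytosolic gene fell and the peroxisomal gene rose slightly, while the mitochondrial gene did not pass the test. IDP2 was 3.16-fold lower in the mutant, with a difference of -1.66 ± 0.13 in log2 level (SE, n = 4 arrays per strain, limma adjusted p = 8.73e-06). IDP3 differed by 0.49 ± 0.14, or 1.41-fold (adjusted p = 0.0208), and IDP1 by -0.18 ± 0.15 (adjusted p = 0.410). Across the array, limma with Benjamini-Hochberg adjustment over all 6256 genes called 1667 genes, or 26.6%, of which 12.7% of all genes were higher and 14.0% lower, so 1 rise and 1 fall among 3 genes is no result about the group.

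Signal strength differed widely between arrays and bears on each value. Median spot signal over local background was 5 to 112 intensity units on the mutant arrays and 15 to 182 on the parent arrays. Probes above background, meaning a signal-to-noise ratio of 3 or more in both spots, numbered 602 to 4704 on mutant arrays and 1534 to 5272 on parent arrays. Mutants 5 and 7 and parent 8 were scanned at a gain of 700 and the other 5 arrays at 600. The 4 mutant arrays shared 1 column of the slide and the 4 parent arrays the second, so strain and slide column cannot be told apart. Mutants 1 and 3 were the closest pair of mutant arrays (mean squared difference of 0.029 over 582 probes, against up to 0.31 for other mutant pairs), and parents 6 and 8 the closest parent pair (0.041, against up to 0.27). Whether these came from separate cultures is not stated array by array, and with each such pair averaged IDP3 had an adjusted p of 0.0497 by limma. The array values carry no read depth, and the number of arrays limits the precision.

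IDP2, the cytosolic enzyme, was the member with the large difference. Its mean spot signal over background was 556.5, 855, 209 and 40.5 units on mutants 1, 3, 5 and 7, against 3880.5, 3541, 1453.5 and 368 units on parents 2, 4, 6 and 8. In each slide row, which holds 1 array of each strain, the unnormalized mutant signal was the lower, at 0.110 to 0.241 of the parent signal. The mutant arrays were dimmer as a whole, and IDP1, which did not pass, stood at 0.312 to 0.623 of the parent signal. Mutant 5 and parent 6, which share a row, were scanned at different gains. Over the median signal of its array, IDP2 stood at 6.79 to 13.06 in the mutant and 19.46 to 26.92 in the parent. After quantile normalization its log2 level was 8.55, 8.66, 9.001 and 8.69 on mutants 1, 3, 5 and 7, against 10.58, 10.27, 10.51 and 10.19 on parents 2, 4, 6 and 8. The highest mutant array lay more than 1 log2 unit below the lowest parent array, and 14.7% of all genes had every mutant array below every parent array. The means were 8.73 ± 0.19 in the mutant and 10.39 ± 0.19 in the parent (SD, n = 4 each).

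By size of fall IDP2 ranked 42 among the 6256 genes, and 182 genes (2.91%) were called at least 2-fold lower. The 95% interval of its difference was -1.95 to -1.37. The 4 row-wise differences ran from -2.03 to -1.50. The probe rose above background on all arrays except mutant 7, which had signal-to-noise ratios of 2.65 and 2.83. In the authors' own processed values IDP2 read 456, 499, 670 and 512 units on mutants 1, 3, 5 and 7, against 2228, 1778, 2127 and 1681 units on parents 2, 4, 6 and 8. The call ended with median scaling of the arrays (-1.83, adjusted p = 0.137) and on the 3 arrays of gain 700 alone (-1.18, adjusted p = 0.321), and the estimate stayed negative in both.

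IDP3, the peroxisomal enzyme, read higher in the mutant by a small margin. Its mean spot signal was 342, 481, 61 and 27 units on mutants 1, 3, 5 and 7, against 329, 285, 124 and 48 units on parents 2, 4, 6 and 8. The unnormalized signal was thus higher in the mutant in 2 slide rows and lower in the other two, while the mutant arrays were dimmer as a whole. Divided by the median signal of its array, IDP3 stood at 4.17, 4.29, 3.81 and 5.40 on the mutant arrays and at 2.02, 1.57, 2.30 and 3.20 on the parent arrays, in the same order. On this simple scale every mutant array was above every parent array, but the share of all genes that do so on it was not computed. With normalized levels, 15.2% of all genes had every mutant array above every parent array. The value of mutant 7 rests on an array median of 5 units. The normalized log2 level was 8.02, 8.02, 7.81 and 8.25 on mutants 1, 3, 5 and 7, against 7.50, 7.25, 7.55 and 7.82 on parents 2, 4, 6 and 8. Here the strains overlapped, since mutant 5 and parent 8, both scanned at gain 700, had nearly the same level.

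The mean log2 level of IDP3 was 8.02 ± 0.18 in the mutant and 7.53 ± 0.23 in the parent (SD, n = 4 each), and the 95% interval of the difference was 0.19 to 0.80. The mutant array was the higher in all 4 slide rows, by 0.26 to 0.77 log2 units. IDP3 was above background on 3 arrays of each strain, with mutant 7 and parent 8 the exceptions. The call ended with 75th percentile scaling (0.50, adjusted p = 0.380), with median scaling (0.44, adjusted p = 0.652), on the gain 700 arrays alone (0.15, adjusted p = 0.907), with the second spot alone (0.45, adjusted p = 0.0953) and without parent 4 (0.39, adjusted p = 0.0679). With percentile or median scaling the median of all genes itself stood at 0.21 or 0.15, and IDP3 lay 0.29 above it in either case.

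IDP1, the mitochondrial enzyme, did not pass the test, and its groups overlapped. Its mean spot signal was 333, 460.5, 74 and 36.5 units on mutants 1, 3, 5 and 7, against 801, 739, 237 and 75.5 units on parents 2, 4, 6 and 8. The normalized log2 level was 7.99, 7.97, 7.92 and 8.52 on mutants 1, 3, 5 and 7, against 8.51, 8.27, 8.12 and 8.24 on parents 2, 4, 6 and 8. Mutants 1, 3 and 5 all lay below the lowest parent array, and mutant 7 lay just above the highest. The mean was 8.10 ± 0.28 in the mutant and 8.28 ± 0.16 in the parent (SD, n = 4 each), and the 95% interval of the difference ran from -0.50 to 0.14.

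Mutant 7 was the dimmest array, and IDP1 was not above background there or on mutant 5. Without mutant 7 the difference was -0.35 (adjusted p = 0.0521), and without parent 2 it was -0.10 (adjusted p = 0.673). On the arrays where IDP1 was above background, a choice made after seeing the data, it was -0.30 (adjusted p = 0.0929). The 2 spots of IDP1 also disagreed more than those of the other members: the brighter spot was 1.64 times the dimmer one in the median array and 2.73 times on parent 6, against medians of 1.19 for IDP2 and 1.05 for IDP3. The only setting that called IDP1 was the one with array weights (-0.26, adjusted p = 0.0129), in which mutants 1 and 3 had weights of 3.15 and 7.85 and mutants 5 and 7 of 0.24 and 0.16.

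**Figure D1:**
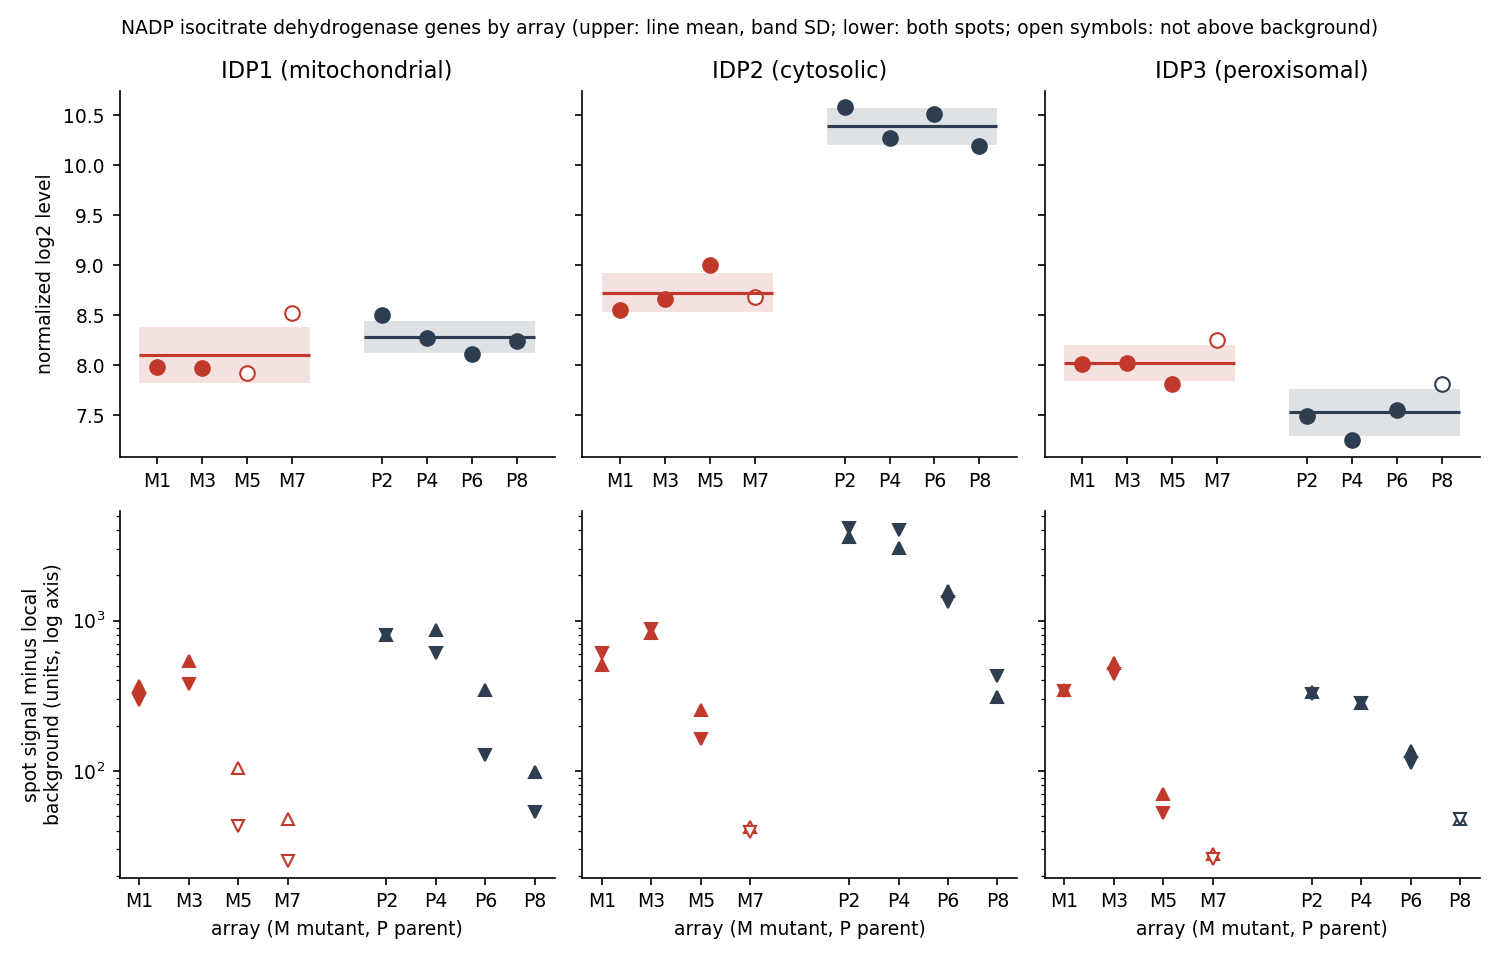
Normalized log2 level (upper row; line and band are the mean and SD of a strain) and signal of both spots over local background in intensity units on a log axis (lower row) of IDP1, IDP2 and IDP3 on mutant arrays 1, 3, 5 and 7 (M) and parent arrays 2, 4, 6 and 8 (P). Only for IDP2 do the strains stand fully apart in the upper row; open symbols mark arrays on which the probe was not above background, and levels of different probes are not comparable.

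Whether the 3 genes changed by different amounts was tested within arrays, on the difference of 2 genes' log2 levels. A value of this kind moves when 1 gene changes more than the other, and it is less exposed to the scaling of the whole array. The exact permutation test over the 8 arrays has 70 splits and cannot give a two-sided p below 0.0286. Of 6 such differences (IDP2 minus IDP1, and so on), 5 reached that p, which is 0.0343 after Benjamini-Hochberg adjustment over the 6.

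The cytosolic gene changed more than both others. IDP2 minus IDP1 was 0.62 ± 0.37 in the mutant and 2.10 ± 0.20 in the parent (SD, n = 4 each, exact permutation adjusted p = 0.0343), so it was lower by 1.48 in the mutant. IDP3 minus IDP2 was -0.70 ± 0.34 in the mutant and -2.86 ± 0.33 in the parent (exact permutation adjusted p = 0.0343), a shift of 2.16. For both differences every mutant array lay on 1 side of every parent array. Both kept their direction in all settings in which they could be computed, between -1.62 and -1.18 for the first and between 1.33 and 2.70 for the second.

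The mitochondrial and peroxisomal genes also differed from each other, by less. IDP3 minus IDP1 was -0.08 ± 0.15 in the mutant and -0.75 ± 0.30 in the parent, a shift of 0.68 (n = 4 each, exact permutation adjusted p = 0.0343). Mutant values ran from -0.27 to 0.05 and parent values from -1.02 to -0.42. That call ended when any 1 mutant array was left out (shifts of 0.60 to 0.80, exact permutation adjusted p of 0.0571 to 0.0686). Probe sequences are not used here, so binding of 1 paralog's transcript by another's probe was not tested, and the 3 probes gave unequal changes.

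Against the NAD-dependent enzyme of the TCA cycle, IDP2 again stood apart. IDH1, its regulatory subunit, had log2 levels of 9.91, 9.90, 9.96 and 9.95 on mutants 1, 3, 5 and 7, against 9.38, 9.24, 9.31 and 9.57 on parents 2, 4, 6 and 8. The rise was 0.55 with an SE of 0.10 (limma adjusted p = 0.00215). Every mutant array was above every parent array, as for 15.2% of all genes. IDH2, the catalytic subunit, differed by 0.24 ± 0.11 (adjusted p = 0.135), with 8.35 to 8.66 in the mutant and 8.21 to 8.34 in the parent. The call of IDH1 ended with 75th percentile scaling (0.43, adjusted p = 0.752) and with median scaling (0.37, adjusted p = 0.711).

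IDP2 minus the mean of IDH1 and IDH2 was -0.50 ± 0.13 in the mutant and 1.56 ± 0.23 in the parent (SD, n = 4 each, exact permutation adjusted p = 0.0343), a shift of -2.06. IDP1 minus that mean shifted by -0.58, with values between -1.39 and -0.78 in the mutant and between -0.71 and -0.34 in the parent (exact permutation adjusted p = 0.0343). This call ended with either scaling (exact permutation adjusted p = 0.137), with the first spot alone (adjusted p = 0.0686) and when any 1 parent array was left out (0.0686 each time). IDP3 minus that mean was -1.20 ± 0.21 in the mutant and -1.30 ± 0.15 in the parent, and the strains overlapped (exact permutation adjusted p = 0.457).

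**Figure D2:**
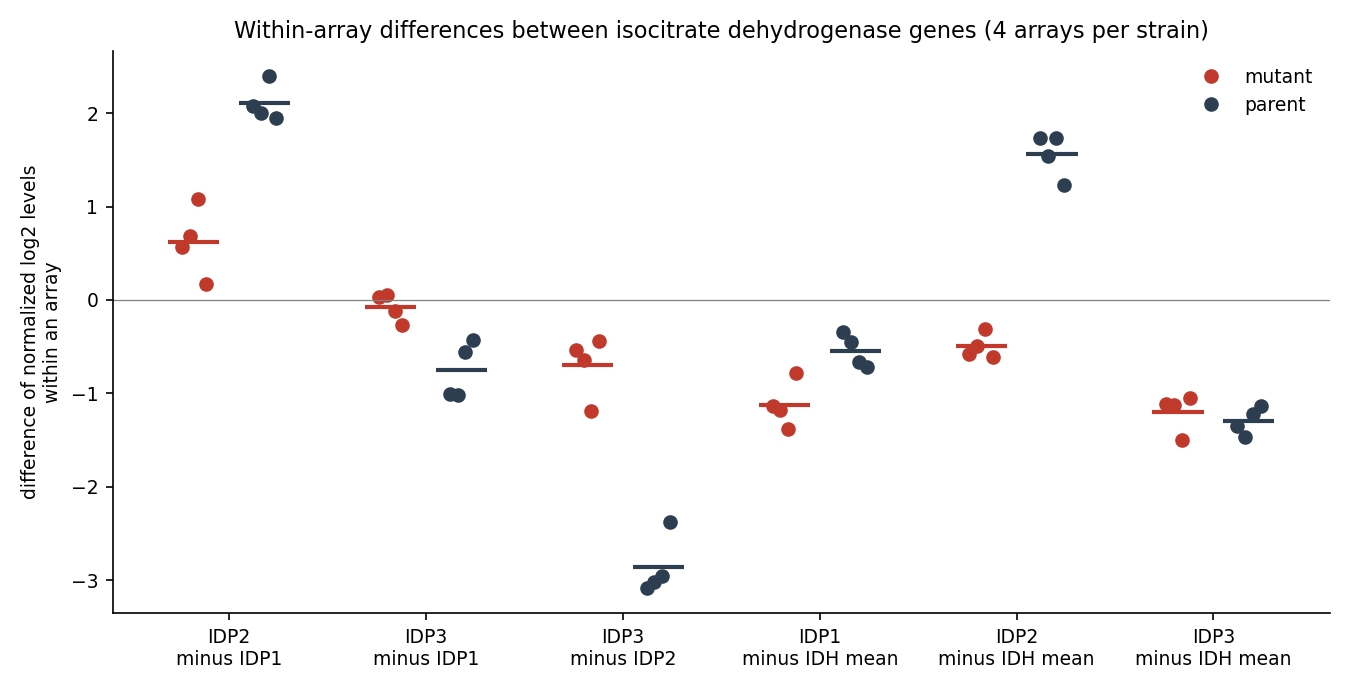
Difference of normalized log2 levels of 2 genes within each array, for the 3 pairs of IDP genes and for each IDP gene against the mean of IDH1 and IDH2, with 4 mutant arrays (left, red) and 4 parent arrays (right, dark) per difference and bars at the means. The strains do not overlap in the first 5 differences and overlap for IDP3 minus the IDH mean, and the widest gap between the means is the 2.16 of IDP3 minus IDP2.

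Genes around the IDP enzymes were listed by role, and 30 of the 69 listed genes, the IDP genes included, were called, where 26.6% of all genes were called (12.7% higher and 14.0% lower). Of 4 genes for citrate synthases and aconitase, which lead to isocitrate, 3 fell, 0 rose and 1 did not pass (median -0.63, against 0.05 over all genes). CIT2, the peroxisomal citrate synthase, was the largest fall among them at -1.85, whereas CIT1, the main mitochondrial form, differed by -0.07 (adjusted p = 0.773). ACO1, aconitase, fell by 0.42 (adjusted p = 0.0447), but its call ended in most other settings, among them slide row as a block (adjusted p = 0.0589), gain as a block (0.0746) and the gain 600 arrays alone (-0.30, adjusted p = 0.276), which leave 2 falls in this list. Of 5 genes listed with the glyoxylate cycle, which competes for isocitrate, 4 fell and ICL2 did not pass (median -0.69). The place of ICL2 in this list does not show that its product acts in the cycle. Beside the cytosolic IDP2, ICL1, isocitrate lyase, fell by 5.10, and MLS1, malate synthase, fell by 3.75; each was above background on 2 mutant arrays and on all 4 parent arrays. The fall of IDP2 was the smallest of these 3 on the log2 scale.

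Of 4 carriers that move citrate or 2-oxoglutarate across the mitochondrial membrane, 1 rose, 2 fell and 1 did not pass (median -0.41). ODC1 and ODC2 encode a pair of related oxodicarboxylate carriers. ODC1 had 8.21, 8.24, 8.30 and 8.07 on mutants 1, 3, 5 and 7, against 9.48, 9.20, 9.57 and 9.52 on parents 2, 4, 6 and 8, so that it fell by 1.24 with an SE of 0.11 (limma adjusted p = 1.98e-05). ODC2 had 9.37, 9.59, 9.72 and 9.42 on those mutant arrays, against 8.10, 8.09, 8.401 and 8.24 on the parent arrays, and rose by 1.32 with an SE of 0.12 (adjusted p = 1.89e-05). Neither pair of groups overlapped, and of all genes 14.7% had every mutant array below and 15.2% every mutant array above the parent arrays. YHM2, a citrate and oxoglutarate carrier, fell by 0.87, and CTP1, the citrate carrier, did not pass at 0.06. YHM2 was above background on 2 mutant and 3 parent arrays. ODC2 did not pass with 75th percentile scaling (1.26, adjusted p = 0.110), and with median scaling neither ODC1 (-1.33, adjusted p = 0.198) nor ODC2 (1.21, adjusted p = 0.350) passed.

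Of 9 genes whose products use 2-oxoglutarate or make it from glutamate, 4 fell, 0 rose and 5 did not pass (median -0.30). GDH3 and GDH1, the NADPH-dependent glutamate dehydrogenases, fell by 1.31 and fell by 0.76, and GLT1, glutamate synthase, fell by 0.91. KGD1 of the 2-oxoglutarate dehydrogenase complex fell by 0.40, while KGD2 at -0.30 and LPD1 at 0.03 did not pass. GDH2, the NAD-dependent glutamate dehydrogenase, did not pass at -0.23. GDH1 was above background on 1 mutant and 3 parent arrays, and GDH3 read 8.38 on parent 2, close to the highest mutant array.

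Other sources of NADPH were mixed: of 12 genes 3 rose, 3 fell and 6 did not pass (median 0.19). ALD6, the cytosolic acetaldehyde dehydrogenase, fell by 2.35 (adjusted p = 3.51e-05). MAE1, the mitochondrial malic enzyme, fell by 2.10 (adjusted p = 5.18e-07), and ALD5, a mitochondrial aldehyde dehydrogenase, fell by 0.75. MAE1 and ALD5 were each above background on 2 mutant arrays. ALD6 had 7.89 to 8.19 in the mutant and 9.60 to 10.79 in the parent. IDP2 and ALD6, which are not the only cytosolic NADPH sources, both had every mutant array below every parent array. The same held for 14.7% of all genes, and for 29.9% in either direction. In the oxidative pentose phosphate branch, SOL4, a phosphogluconolactonase, rose by 1.21 and GND2, a phosphogluconate dehydrogenase, by 0.59. ZWF1, glucose-6-phosphate dehydrogenase, at 0.23 and GND1, the major phosphogluconate dehydrogenase, at 0.63 did not pass. With slide row as a block GND1 passed (limma adjusted p = 0.0156), and 4 genes of this list were higher and 3 lower. The third rise in the main setting was YEF1, an NAD kinase, by 0.56, and it did not pass with gain as a block (0.50, adjusted p = 0.0618). Of 3 NADPH-dependent antioxidant reductases, GLR1, glutathione reductase, rose by 0.39, and TRR1 and TRR2 did not pass. The call of GLR1 did not hold with the authors' own processed values.

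Peroxisomal fatty acid oxidation, the pathway that IDP3 serves, was listed with 12 genes, of which 1 rose, 1 fell and 10 did not pass (median 0.18). With slide row as a block 4 were higher and 1 lower, since POT1 (adjusted p = 0.0295), PXA2 (0.0221) and TES1 (0.0424) then passed along with FOX2. SPS19, the dienoyl-CoA reductase that consumes NADPH in peroxisomes, fell by 1.18 (adjusted p = 6.03e-05), with 6.49 to 6.96 in the mutant and 7.85 to 8.12 in the parent. SPS19 was above background on 2 mutant arrays and on 4 parent arrays. IDP3, the peroxisomal NADPH source, and SPS19, its user, thus differed from the parent in opposite directions, with the limits on IDP3 given above. FOX2, the multifunctional enzyme, rose by 0.75 (adjusted p = 0.0545 on the gain 600 arrays alone). POT1, the thiolase, at 0.48 did not pass without slide row as a block (adjusted p = 0.0535). POX1, the acyl-CoA oxidase, at 0.14 and CTA1, peroxisomal catalase, at -0.04 did not pass without that block or with it (limma adjusted p of 0.317 and 0.791 with it).

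Among 15 genes for regulators of these pathways, 2 rose, 2 fell and 11 did not pass (median -0.11), and with slide row as a block 4 were lower. HAP4, the activating subunit of the HAP complex, rose by 0.94 (adjusted p = 0.0273, 0.0899 on the gain 600 arrays alone and 0.0604 with gain as a block), HAP5 rose by 0.52 and HAP3 fell by 0.64. SIP4, an activator of gluconeogenic genes, fell by 0.88 (limma adjusted p = 0.00501), but it did not exceed background on any of the mutant arrays. With its mutant levels raised to the lowest level of any probe above background on each array, SIP4 was at least 1.03-fold lower. This bound was not tested. CAT8 at -0.11 and ADR1 at -0.31, activators of genes for nonfermentable carbon, did not pass. OAF1 at -0.18 and PIP2 at -0.05, the oleate-responsive activators, did not pass either. RTG1 was not above background on any array.

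Of the 30 listed genes called, 24 were called in the same direction on the gain 600 arrays alone, 6 with 75th percentile scaling and 5 with median scaling. All 30 kept their sign in these 3 settings. The calls lost on the gain 600 arrays alone were those of ACO1, FOX2, GDH1, GDH3, HAP4 and MDH3, and those lost with gain as a block were ACO1, HAP4 and YEF1. With the authors' own processed values the calls of ACO1, GLR1 and MDH2 were lost. IDP2, ICL1, MLS1, ALD6, MAE1 and ODC1 were the genes called with 75th percentile scaling.

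**Figure D3:**
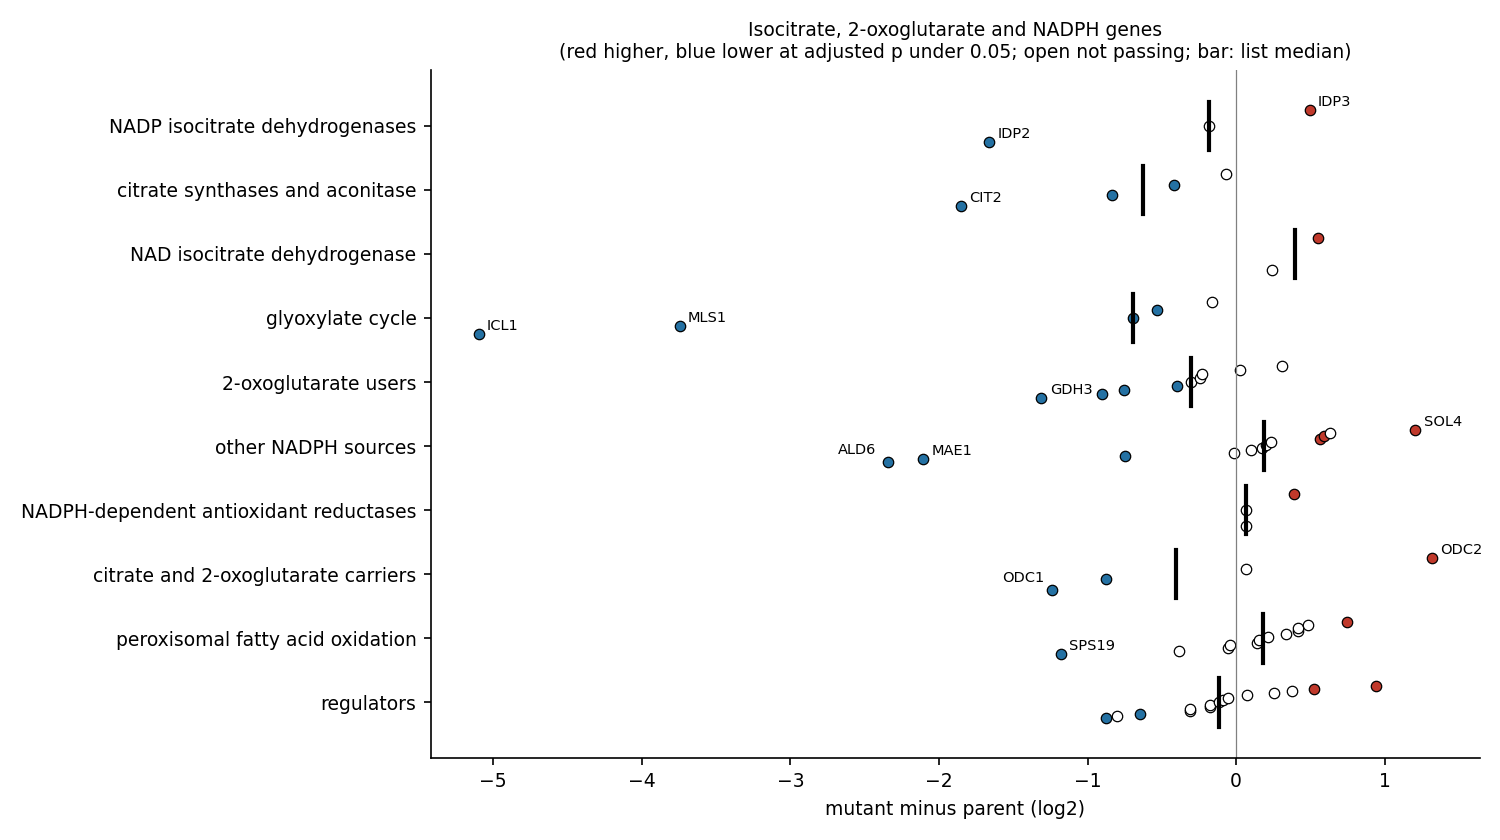
Mutant minus parent difference in log2 level for each gene of the IDP group and of 9 lists of related genes, with red for higher and blue for lower at a limma adjusted p under 0.05, open circles for genes that did not pass, and a bar at each list's median. The IDP row spreads from IDP2 at -1.66 to IDP3 at 0.49, and the carrier row from ODC1 at -1.24 to ODC2 at 1.32.

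The genes closest in pattern to each member were found among 4478 genes above background on at least 4 of the 8 arrays, by the root mean square difference of log2 levels after each gene was centred on its mean. For IDP2 they were RPS24A (0.11 log2 units, Pearson's r = 0.993), SPA2 (0.12), RPS25A (0.13), MET30 (0.15) and ARO10 (0.15), which differed between strains by -1.75 to -1.46. For IDP3 they were SEC15 (0.11), YNL058C (0.11), QRI7 (0.11), GYP6 (0.11) and PAP1 (0.11), with differences of 0.37 to 0.58. For IDP1 they were CTR3 (0.06), POL12 (0.06), YPL108W (0.07), SNX3 (0.08) and MSB1 (0.09), with differences of -0.23 to -0.11, none of which passed. All 8 arrays share a slide and fall in 2 groups. These genes were chosen for likeness over the same 8 arrays, so a strain difference close to the member's follows from the choice.

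**Figure D4:**
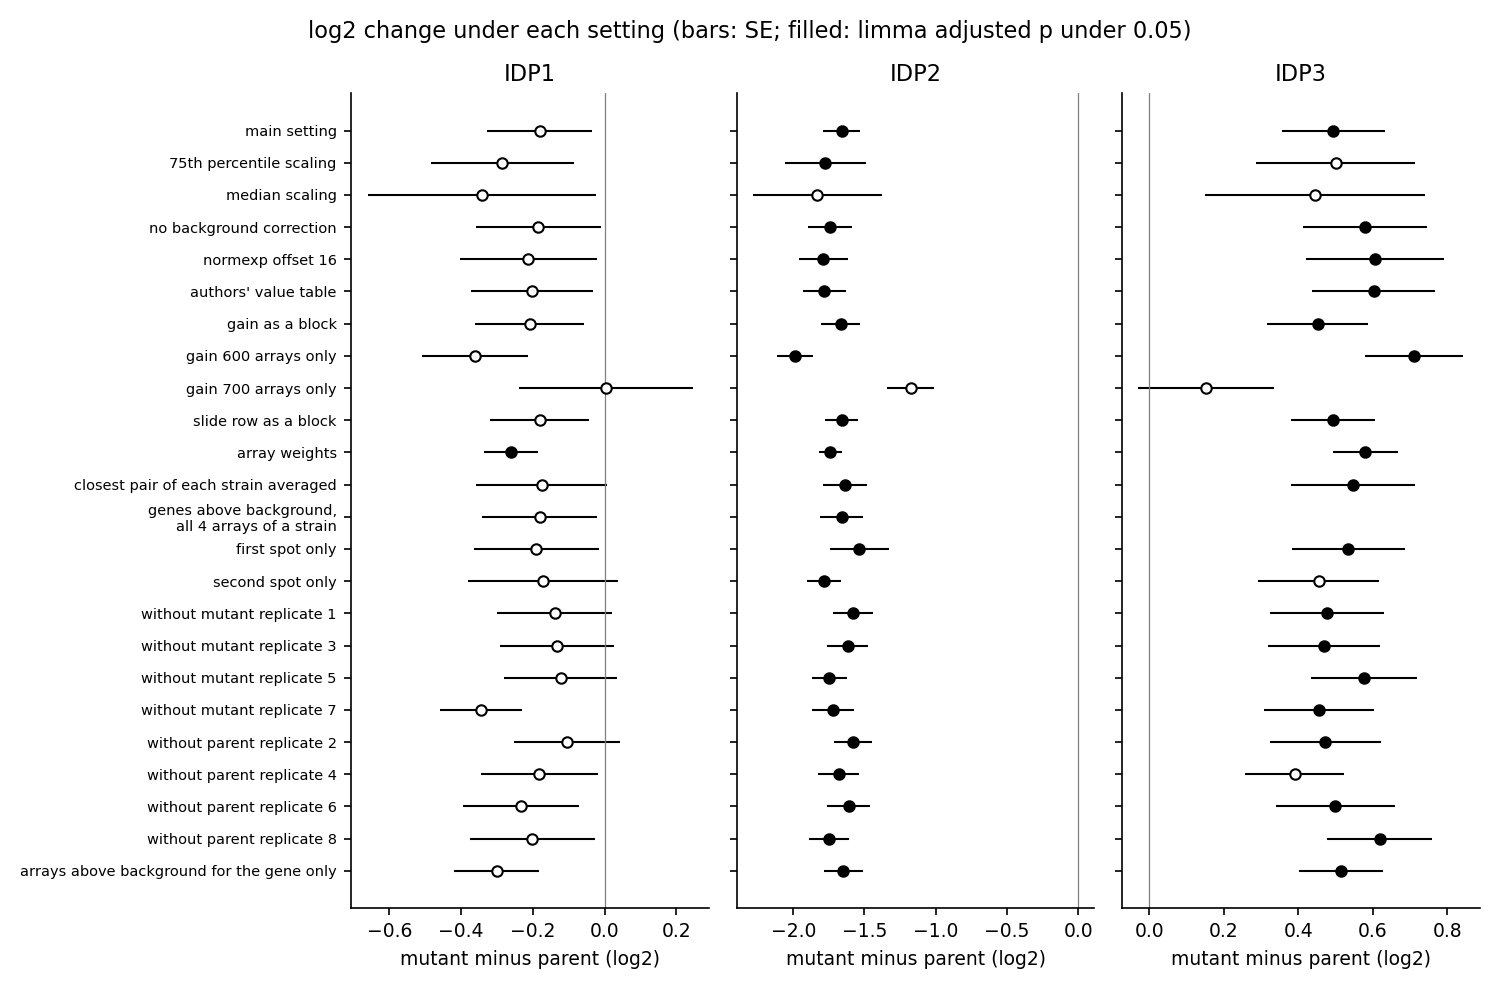
Mutant minus parent difference in log2 level of IDP1, IDP2 and IDP3 under the main setting and each alternative, with bars of 1 SE and filled circles where the limma adjusted p was under 0.05. IDP2 stays between -1.99 and -1.18, IDP3 between 0.15 and 0.71, and IDP1 between -0.36 and 0.0037; IDP3 has no value under the filter on dim probes.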

How the data were processed

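Each array received Cy5-labelled cRNA made from 0.5 µg of total RNA, per the labels' protocols. Per the file headers, arrays were read at 635 nm in GenePix Pro 6.1.0.4, unnormalized and with local background. The deposited tables give each spot's intensity, its signal-to-noise score and the percent of its pixels that were saturated (at most 1 for the IDP genes). The authors' deposited value table holds processed intensity on a linear scale, and its columns have medians of 75.2 (mutant 1), 75.1 (mutant 3), 78.4 (mutant 5), 79.4 (mutant 7), 76.6 (parent 2), 76.1 (parent 4), 77.0 (parent 6) and 75.5 (parent 8). It is not centred on genes, lies about 32 units under quantile-normalized spot medians, and how that constant was chosen stays unknown. It served as an alternative, as log2(value + 50), beside other background corrections, scalings, gain and slide row as blocks, gain subsets, array weights, single spots, a filter on dim probes, averaging the closest pair of arrays of each strain and leaving out each array.

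Spot medians were corrected with normexp (offset 50), taken to log2, quantile-normalized and averaged over both spots in limma 3.58.1 under R 4.3.3. The offset understates changes of dim genes. Strains were compared with lmFit and eBayes, 4 against 4, two-sided, called at an adjusted p of 0.05, and the steps were tested on simulated data. A RefSeq table of assembly R64 gave current symbols for 5756 of the 6256 names. The sources used here do not give the genome build behind the probes. The design text speaks of independent biological samples, but if arrays share a culture, p-values measure technical spread in part. The members, lists and tests were chosen with earlier results of these data known. One gene was left out of the lists and their counts and is not reported here. Named genes are the 3 IDP genes, members of the 9 related lists, and for each IDP gene the 5 genes nearest in pattern.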

Additional observations from a re-analysis of the deposited data

Results flagged for a closer look

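In 168 groups of 4 arrays (84 genes, 2 strains), the highest or lowest array stood far from the other three in 10. Chance alone gives about 1 in 20 groups. Among the members this was IDP1 on mutant 7, at a log2 level of 8.52 against 7.92 to 7.99 on the other mutant arrays.

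Mutant 7, the dimmest array, was also apart for 5 other genes: high for POL12 (7.44) and SNX3 (7.46), and low for TRR2 (6.997), PXA1 (7.01) and SPS19 (6.49). POL12 and SNX3 were named for their likeness to IDP1, and both share its high value on mutant 7. On parent 2 GDH3 read 8.38, against 9.78 to 9.91 on the other parent arrays. KGD1 read 8.51 on parent 4, HAP3 6.98 on parent 8 and SPA2 7.98 on mutant 5. The part of array brightness in these values was not tested.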

How the results depend on the processing

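IDP2 stayed lower in all settings, and was still called in all but 2: median scaling (-1.83, adjusted p = 0.137) and gain 700 alone (-1.18, adjusted p = 0.321). IDP3 stayed higher in all settings run, and its call was lost with 75th percentile scaling (0.50), median scaling (0.44), gain 700 alone (0.15), the second spot (0.45) and without parent 4 (0.39). IDP1 turned to 0.0037 on gain 700 alone and passed with array weights (-0.26). Leaving out 1 array gave -0.35 to -0.10 for IDP1, -1.75 to -1.58 for IDP2 and 0.39 to 0.62 for IDP3. The count of called genes was 1210 to 1708 without 1 array, 57 with 75th percentile scaling (0 higher, 760 at an unadjusted p under 0.05), 37 with median scaling (0 higher, 751 unadjusted), 0 on gain 700 alone by limma (647 unadjusted), 3034 with array weights (1653 higher, 1381 lower), 738 with the filter on dim probes (310 higher, 428 lower), 1053 with the first spot (433 higher, 620 lower) and 870 with the second (403 higher, 467 lower). The causes were not tested, except that fewer arrays or genes entered some fits. Within-array shifts moved on gain 600 alone (1.07 for IDP3 minus IDP1, 2.70 for IDP3 minus IDP2, -2.37 for IDP2 and 0.33 for IDP3 minus the IDH mean) and on gain 700 alone (0.15, 1.33, -1.48 and -0.15, with -0.30 for IDP1 minus the IDH mean), and in both subsets the exact permutation test has too few arrays to pass. IDP1 minus the IDH mean no longer passed with 75th percentile or median scaling (-0.58 each) or the first spot (-0.64). Without 1 array the shifts ran from -1.62 to -1.38 (IDP2 minus IDP1), 0.57 to 0.82 (IDP3 minus IDP1), 2.05 to 2.37 (IDP3 minus IDP2), -0.73 to -0.49 (IDP1 minus the IDH mean), -2.19 to -1.98 (IDP2) and 0.03 to 0.21 (IDP3). They were not computed with blocks, array weights or the filter on dim genes, which the permutation test does not take or which leaves out IDP3. The labels' replicate numbers do not pair the strains. With slide row as a block, which sets the neighbouring arrays of a row side by side, IDP2 (adjusted p = 6.81e-05) and IDP3 (0.0122) stayed called and 1786 genes passed. With the closest pair of each strain averaged 1145 genes passed, IDP3 was at 0.55 (adjusted p = 0.0497), and the within-array test, with an adjusted p of 0.12 at best, could not pass. On mutant arrays, IDP1 was above background on 2 and IDP2 and IDP3 on 3 each.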
